A study of Mus musculus with 36 samples.

Results

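The genes described here are 10 brown fat thermogenic genes, Ucp1, Elovl3, Otop1, Cidea, Dio2, Ppargc1a, Prdm16, Cox7a1, Cox8b and Fabp3, followed through 36 libraries of mouse carotid artery. They were taken by symbol from a count table of 49568 gene symbols, and all 10 were among the 18628 symbols with enough counts to be tested. Each library was made from the ligated left carotid artery of 1 mouse, and ligation is an operation that stops flow and makes the vessel wall remodel. Arteries came from the inbred strains 129X1/SvJ (129X1) and C57BL/6J (B6), 18 mice each, and were collected 14 days after ligation. Mice of each strain received 60 mg/kg/day of sacubitril/valsartan (Sac/val), 27 mg/kg/day of valsartan (Val) or 2 mL/kg/day of vehicle (Veh). Valsartan blocks the angiotensin receptor, and sacubitril adds an inhibitor of the peptidase neprilysin. Dosing was therapeutic (T, 7 days from day 7 after ligation) or prophylactic (P, 16 days from 2 days ahead of ligation), which gives 12 groups of 3 mice. Every mouse carried the ligation, so no unligated artery enters any comparison. Replicate numbers below only name mice within a group, in the order of the sample list.

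Brown adipocytes burn fatty acids to make heat. Noradrenaline from sympathetic nerves raises cyclic AMP in them, which frees fatty acids from lipid droplets and induces Ucp1, the protein that lets protons leak back across the inner mitochondrial membrane so that respiration runs without making ATP. In mice brown fat lies around the large vessels of the neck and chest as well as between the shoulder blades. Of the 10 genes, Ucp1 is the uncoupler and Dio2 the deiodinase that makes active thyroid hormone inside the cell. Ppargc1a is a coactivator that drives mitochondrial biogenesis, and Prdm16 a transcriptional regulator of brown fat identity. Elovl3 elongates very long chain fatty acids, Fabp3 carries fatty acids in the cytosol, and Cidea sits on lipid droplets. Cox7a1 and Cox8b are the forms of 2 cytochrome c oxidase subunits that muscle and brown fat use, and Otop1 is a proton channel.

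Promoter sequences are shown for 4 of the genes because these genes went different ways in the comparisons below: Ucp1 and Cox8b moved together from library to library, whereas Dio2 and Ppargc1a followed Ucp1 less closely. Each is the 250 bases before the RefSeq start site on GRCm38.p6, written 5′ to 3′ on the strand of the gene. Capitals mark matches, on either strand, to the cyclic AMP response element TGACGTCA, to the shorter core TGACG within it, or to the nuclear receptor core AGGTCA.
Ucp1, chr8:83290098-83290347, plus strand: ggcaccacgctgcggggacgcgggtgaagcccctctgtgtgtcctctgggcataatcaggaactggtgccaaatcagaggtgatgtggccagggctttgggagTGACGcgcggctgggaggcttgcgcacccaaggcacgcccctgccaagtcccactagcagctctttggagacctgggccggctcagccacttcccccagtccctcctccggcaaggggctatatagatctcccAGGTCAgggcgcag
Dio2, chr12:90739039-90739288, minus strand: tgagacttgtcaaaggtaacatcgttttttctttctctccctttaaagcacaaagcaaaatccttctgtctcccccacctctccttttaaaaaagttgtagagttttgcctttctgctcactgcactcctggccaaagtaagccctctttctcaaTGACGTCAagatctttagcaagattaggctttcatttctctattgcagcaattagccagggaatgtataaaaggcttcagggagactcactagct
Ppargc1a, chr5:51567726-51567975, minus strand: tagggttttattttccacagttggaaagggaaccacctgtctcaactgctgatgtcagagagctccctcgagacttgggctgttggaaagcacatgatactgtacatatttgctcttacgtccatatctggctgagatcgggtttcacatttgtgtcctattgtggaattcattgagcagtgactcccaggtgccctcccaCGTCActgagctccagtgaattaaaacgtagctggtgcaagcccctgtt
Cox8b, chr7:140900447-140900696, minus strand: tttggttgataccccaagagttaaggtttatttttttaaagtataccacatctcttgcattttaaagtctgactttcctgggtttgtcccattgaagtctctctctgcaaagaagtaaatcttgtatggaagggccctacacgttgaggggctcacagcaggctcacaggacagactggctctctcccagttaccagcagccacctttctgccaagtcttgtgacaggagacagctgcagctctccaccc
Entries were found for 8 of the 10 genes, all but Elovl3 and Cidea. The full element TGACGTCA was in 1 of the 8 promoters, that of Dio2, from -95 to -88 relative to the start site, and in 1.55% of 32851 promoters of the same length. The core TGACG, which the full element contains on both strands, was in 4 of the 8 (Ucp1, Dio2, Ppargc1a and Fabp3) and in 17.8% of all promoters. AGGTCA was in the Ucp1 promoter alone among the 8, from -14 to -9, and in 14.0% of all promoters. The longer elements TCAAGGTCA and DR1, a direct repeat of the nuclear receptor core with 1 base between, were in none of the 8, and in 0.387% and 0.0335% of all promoters. A match describes letters in this window and says nothing of binding.

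Transcripts of all 10 genes were present in every library, with the lowest count at 47 reads (Elovl3). The libraries held between 18.96 M and 28.97 M counted reads, with a median of 22.78 M. Levels are given as CPM, counts per 1 M reads, after scaling by the trimmed mean of M values (TMM). The labels name the tissue as carotid artery, and its smooth muscle marker Myh11 ran from 40.5 to 673 CPM over the 36 libraries. The fat cell gene Adipoq was between 226 and 1027 CPM in every library, and Lep, a white adipocyte hormone, between 5.75 and 77.5 CPM. Dissection of surrounding fat is not described in the labels. In whole tissue, fewer cells of a type and less RNA per cell cannot be told apart. Levels of lymphoid, thyroid and skeletal muscle transcripts also differed between libraries: Rag1 of developing lymphocytes ran from 0.0411 to 1591 CPM, thyroglobulin (Tg) from 0.172 to 39846 CPM and skeletal muscle actin (Acta1) from 2.28 to 10505 CPM. The labels do not say that the mice were handled in batches, and p-values measure the spread between mice of a group.

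To compare levels between genes, CPM was divided by the summed exon length in kilobases. In 129X1 the order of the medians was Ucp1 (1437 CPM per kb), Cox8b (948), Cidea (751), Cox7a1 (288), Fabp3 (86.6), Otop1 (38.6), Elovl3 (37.2), Dio2 (11.7), Prdm16 (2.68) and Ppargc1a (2.30). In B6 the medians per length were 540 for Ucp1, 460 for Cox8b, 372 for Cidea, 143 for Cox7a1, 49.7 for Fabp3, 16.3 for Otop1, 10.3 for Elovl3, 12.9 for Dio2, 2.86 for Prdm16 and 2.15 for Ppargc1a. The uncoupler and the mitochondrial and droplet proteins thus stood far above the regulators in both strains. Some neighbours in this order held in every library: Cidea over Cox7a1, Cox7a1 over Fabp3, Fabp3 over Otop1 and Dio2 over Prdm16 in 36 of 36. Others depended on the strain. Ucp1 exceeded Cox8b per length in 18 of 18 libraries of 129X1 and in 9 of 18 of B6, and Elovl3 exceeded Dio2 in 18 of 18 of 129X1 and in 6 of 18 of B6. Otop1 and Elovl3 were not separated in 129X1, with Otop1 higher in 10 of 18 libraries, and Prdm16 exceeded Ppargc1a in 10 of 18 libraries of 129X1 and in 13 of 18 of B6.

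**Figure D1:**
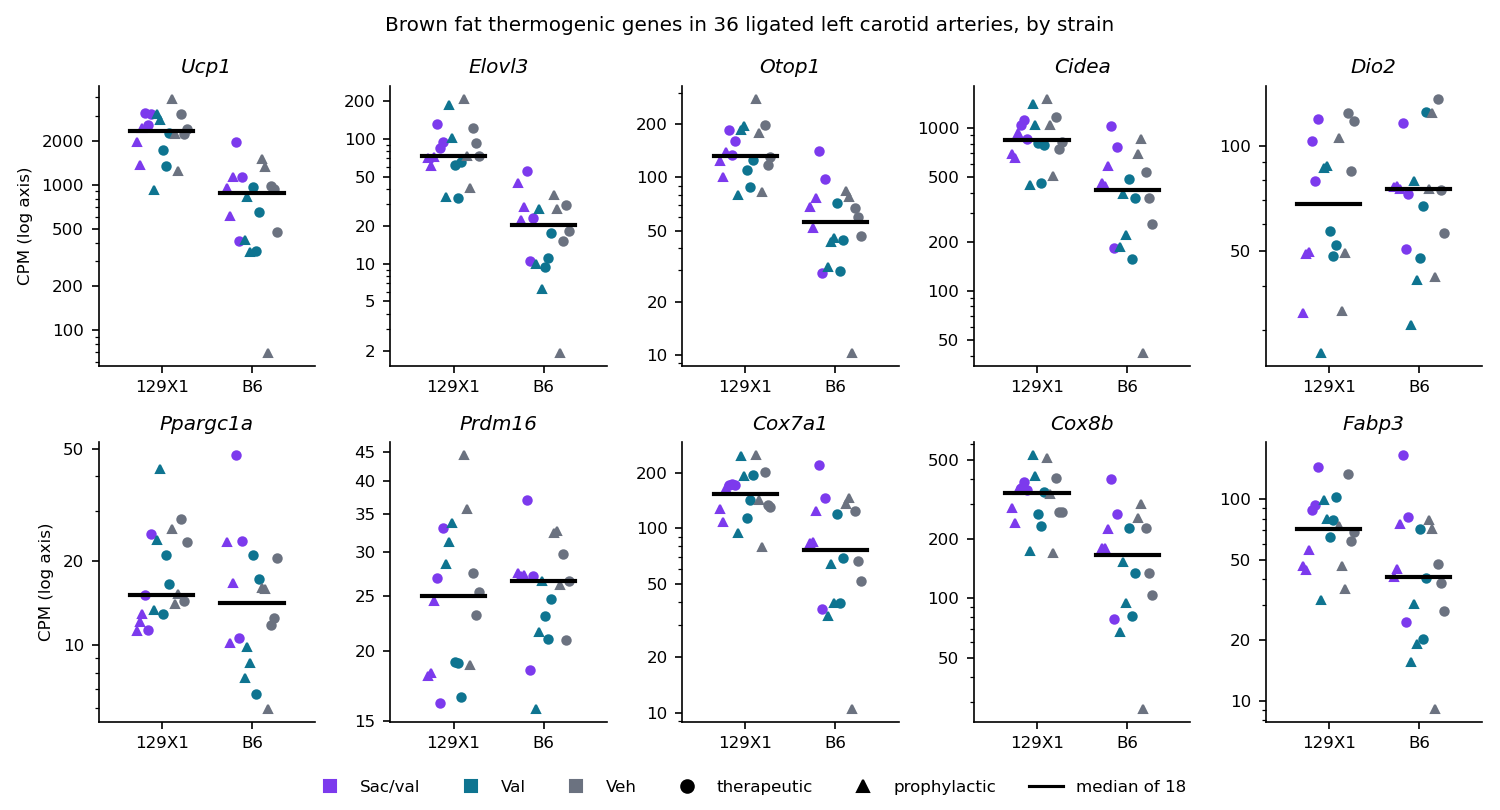
Level of each gene (CPM, log axis) in the 36 libraries, with 129X1 at the left and B6 at the right of each panel; colour gives the treatment, shape the regimen and the line the median of 18 libraries. For Ucp1 the 129X1 libraries lie between 928 and 3920 CPM and the B6 libraries between 69.5 and 1983 CPM, whereas for Dio2 and Prdm16 the strains cover nearly the same range.

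The strain comparison asks how the arteries of 129X1 mice differ from those of B6 mice over all treatments and regimens, with 18 libraries on each side. Of the 10 genes, 7 were higher in 129X1 and none was lower by edgeR's quasi-likelihood test with Benjamini-Hochberg adjustment over 18628 genes, a gene passing at an adjusted p below 0.05. These were Elovl3, Ucp1, Otop1, Cidea, Cox8b, Cox7a1 and Fabp3. Dio2, Ppargc1a and Prdm16 did not pass. The background was high, since 33.8% of all genes passed in either direction and 16.3% were higher in 129X1. The median log2 difference was 0.93 over the 10 genes and -0.02 over all genes tested.

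Ucp1 had a lowest, median and highest level of 928, 2351 and 3920 CPM in 129X1, against 69.5, 884 and 1983 CPM in B6. All 18 libraries of 129X1 lay above the B6 median, and 9 of 18 B6 libraries lay above the lowest of 129X1, so the strains overlapped. The log2 difference was 1.503 (SE 0.28, 95% interval 0.94 to 2.07, edgeR adjusted p = 0.000139).

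Elovl3, the fatty acid elongase, had the largest strain difference of the 10. Its lowest, median and highest levels were 34.0, 73.5 and 210 CPM in 129X1, against 1.93, 20.3 and 55.9 CPM in B6. Only 3 of 18 B6 libraries exceeded the lowest library of 129X1. The log2 difference was 2.06 (SE 0.30, 95% interval 1.43 to 2.68, edgeR adjusted p = 7.72e-06).

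Otop1, the proton channel, had levels of 79.2, 133 and 277 CPM (lowest, median, highest) in 129X1, against 10.3, 56.1 and 141 CPM in B6. Here too 3 of 18 B6 libraries exceeded the lowest of 129X1, and the log2 difference was 1.30 (SE 0.22, edgeR adjusted p = 5.28e-05). Cidea, the droplet protein, averaged 891.1 ± 299 CPM in 129X1 and 445 ± 263 CPM in B6 (SD, n = 18 each). All 18 libraries of 129X1 exceeded the B6 median of Cidea, and its log2 difference was 1.05 (SE 0.27, edgeR adjusted p = 0.0033).

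The oxidase subunits differed by similar amounts. Cox8b averaged 328 ± 101 CPM in 129X1 and 173.8 ± 95.6 CPM in B6 (SD, n = 18 each), a log2 difference of 0.96 (SE 0.24, edgeR adjusted p = 0.00287). Cox7a1 averaged 158 ± 47.8 CPM in 129X1 and 88.8 ± 53.7 CPM in B6 (SD, n = 18 each), a log2 difference of 0.90 (SE 0.26, edgeR adjusted p = 0.00764). For both genes 9 of 18 B6 libraries lay above the lowest library of 129X1.

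Fabp3 was the weakest of the 7 that passed. Its lowest, median and highest levels were 31.5, 71.3 and 144 CPM in 129X1, against 9.09, 40.9 and 165 CPM in B6, so that the highest library of all was from B6. The log2 difference was 0.65 (SE 0.24, 95% interval 0.15 to 1.15, edgeR adjusted p = 0.0396). It did not pass without the filter on low counts (0.66), nor in 17 of the 36 fits that left out 1 library, with an adjusted p of up to 0.0753 and log2 differences down to 0.58. The libraries concerned in 129X1 were Sac/val-T replicate 3, Sac/val-P replicate 3, Val-T replicate 3, Val-P replicates 2 and 3, Veh-T replicate 1 and Veh-P replicate 1. In B6 they were Sac/val-T replicates 2 and 3, Sac/val-P replicates 1 and 2, Val-T replicates 2 and 3, Val-P replicates 1 and 3, and Veh-T replicates 2 and 3. Exons of Fabp3 share 81 bases with Zcchc17, which reached 33.2 CPM, and 80 bases with Gm10570, which reached 0.884 CPM, both on the opposite strand. How strand was set at counting is not given in the sources used here, so that share of its reads is uncertain.

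The other 3 genes did not pass. Dio2 ran from 25.7 to 123 CPM in 129X1 (median 68.2) and from 30.9 to 136 CPM in B6 (median 75.1), a log2 difference of -0.12 with a 95% interval of -0.51 to 0.27. Prdm16 ran from 16.2 to 44.5 CPM in 129X1 (median 25.0) and from 15.8 to 37.0 CPM in B6 (median 26.6), a log2 difference of -0.04 with an interval of -0.26 to 0.18. Ppargc1a ran from 11.3 to 42.4 CPM in 129X1 (median 15.1) and from 5.92 to 47.6 CPM in B6 (median 14.2), a log2 difference of 0.29 with an interval of -0.12 to 0.70. For all 3 genes the intervals leave out a difference of the size seen for Ucp1.

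Because the 2 sets of genes went apart, ratios between them differed between the strains. On the log2 CPM scale (prior count 2), Dio2 minus Ucp1 averaged -5.06 ± 0.44 in 129X1 and -3.27 ± 0.87 in B6 (SD, n = 18 each). The 2 strains did not overlap in this ratio, with a highest value of -4.37 in 129X1 and a lowest of -4.33 in B6, a narrow gap. Prdm16 minus Ucp1 averaged -6.47 ± 0.50 in 129X1 and -4.74 ± 1.01 in B6 (SD, n = 18 each), and 17 of 18 libraries of 129X1 lay below every B6 library. Ppargc1a minus Ucp1 did so in 14 of 18. These ratios were singled out after their values were seen and carry no test.

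Ratios of Ucp1 to the other genes that passed also differed. Cidea minus Ucp1 averaged -1.37 ± 0.23 in 129X1 and -0.92 ± 0.24 in B6 on the log2 CPM scale (SD, n = 18 each), and no library of 129X1 exceeded the B6 median. Elovl3 minus Ucp1 averaged -4.78 ± 0.32 in 129X1 and -5.28 ± 0.53 in B6, with 17 of 18 libraries of 129X1 above the B6 median. Against its form outside muscle and brown fat, Cox8b was 1.71 times Cox8a per length in 129X1 (median of 18, range 1.31 to 1.96) and 1.23 times in B6 (range 0.462 to 1.75). Cox7a1 was 1.33 times Cox7a2 per length in 129X1 (range 0.986 to 1.54) and 0.884 times in B6 (range 0.222 to 1.46). Ucp1 was 19.2 times Ucp2, a related carrier found in many tissues, per length in 129X1 (range 9.94 to 46.8) and 9.72 times in B6 (range 0.718 to 50.4).

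Markers of some other cell types differed between the strains, and their counts stand beside the 33.8% of all genes that passed in either direction and the 16.3% that were higher in 129X1. Of 14 adipocyte markers, which brown and white fat cells share, 12 were higher in 129X1 and none was lower (edgeR, adjusted p below 0.05), and their summed level was 22065 to 93522 CPM in 129X1 and 8249 to 56688 CPM in B6. Of 7 macrophage markers, 6 were lower in 129X1, with sums of 273 to 794 CPM in 129X1 and 211 to 1462 CPM in B6. Of 16 skeletal muscle markers, 4 were higher in 129X1, with sums of 49.2 to 39883 CPM in 129X1 and 92.0 to 24355 CPM in B6. Of 7 white adipocyte markers tested, 1 was higher and 2 were lower. Heart muscle uses Cox7a1, Cox8b and Fabp3 as well. Of its 8 markers 5 could be tested and 1 was higher in 129X1, Actc1, which averaged 29.1 ± 42.7 CPM there, against 5.51 ± 5.21 CPM in B6 (SD, n = 18 each; log2 difference 2.32, edgeR adjusted p = 0.00125). The 5 summed to 11.9 to 201 CPM in 129X1 and 8.74 to 41.5 CPM in B6, and Nppa and Nppb had at most 1 and 3 reads in any library. Thymocyte markers summed to 0.805 to 1520 CPM in 129X1 and 1.28 to 4433 CPM in B6, and 1 of 6 was higher. Of 8 Schwann cell markers 7 were lower in 129X1, of 5 B cell markers 4 were higher, of 5 thyroid markers 2 were lower (Tshr and Slc5a5), and of 8 sympathetic neuron markers none passed. Libraries with 10 CPM of Rag1 or more were then left out, a choice made after seeing the data. That left 6 libraries of 129X1 and 14 of B6. The strain difference was here a mean over the 5 combinations of treatment and regimen that kept both strains. Most of these held 1 library of 129X1. Then 1 of the 10 genes passed, Elovl3 (2.29, edgeR adjusted p = 0.0256), and 20.3% of all genes. The log2 differences of the other 6 were 1.57 for Ucp1, 1.31 for Otop1, 0.97 for Cidea, 0.91 for Cox8b, 0.86 for Cox7a1 and 0.60 for Fabp3, with edgeR adjusted p values from 0.0528 (Otop1) to 0.400 (Fabp3). With the thymocyte score as a covariate in all 36 libraries, also added after seeing the data, all 7 passed (37.7% of all genes), Ucp1 at 1.499 (edgeR adjusted p = 0.000276) and Fabp3 at 0.66 (edgeR adjusted p = 0.0457). With the skeletal muscle score 6 passed (31.5% of all genes), and Fabp3 had 0.61 (edgeR adjusted p = 0.0528). The part of macrophages, B cells, heart muscle and thyroid in the strain differences was not tested.

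With the mean log2 CPM of the adipocyte markers as a covariate, 4 of the 10 genes passed and 13.5% of all genes did. Elovl3 stayed higher in 129X1 with a log2 difference of 1.03 (95% interval 0.47 to 1.60, edgeR adjusted p = 0.0109), and Otop1 with 0.43 (interval 0.19 to 0.67, edgeR adjusted p = 0.0129). Dio2 was now lower in 129X1, by -0.63 (interval -1.03 to -0.23, edgeR adjusted p = 0.0281), and so was Prdm16, by -0.36 (interval -0.57 to -0.15, edgeR adjusted p = 0.0149). Ucp1 had 0.54 (interval 0.09 to 0.99) and did not pass, with an edgeR adjusted p of 0.104. Cidea, Cox8b, Cox7a1, Fabp3 and Ppargc1a had 0.08, 0.07, -0.01, -0.14 and -0.26 and did not pass. With skeletal muscle and Schwann cell scores added, Elovl3 alone passed (1.14, edgeR adjusted p = 0.0184) among 16.1% of all genes. Whether the adipocyte markers differ because of fat cell number or of fat cell state was not tested.

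**Figure D2:**
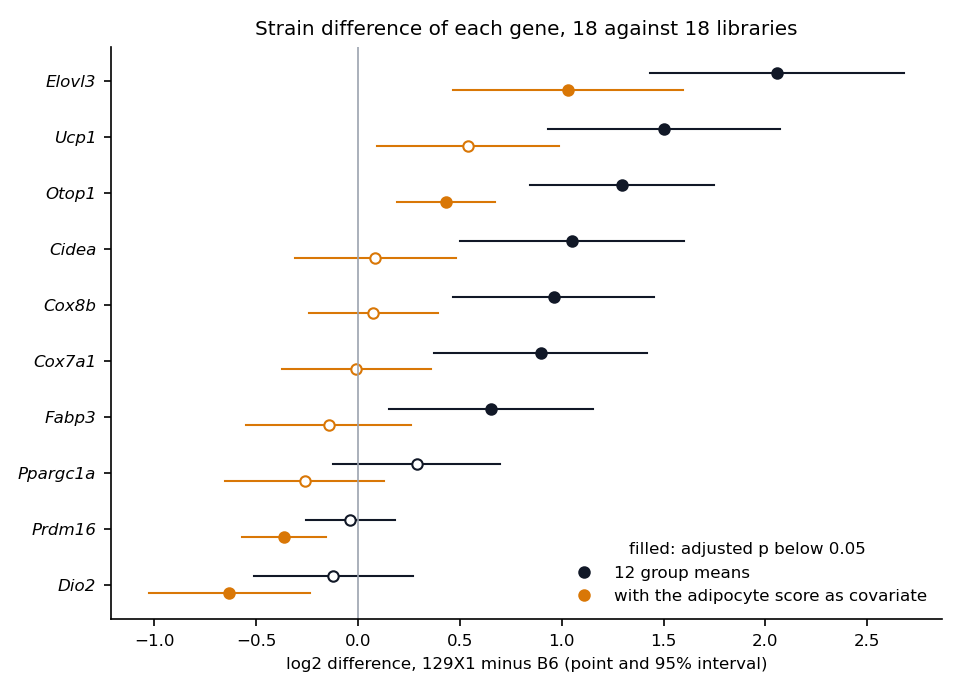
Log2 difference of each gene, 129X1 minus B6, with its 95% interval, in the fit of 12 group means (black) and with the adipocyte score as a covariate (orange); filled points have an adjusted p below 0.05. Ucp1 lies at 1.503 in the plain fit and at 0.54 with the score, Dio2 at -0.12 and at -0.63.

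Across the 36 libraries the genes fell into those that followed Ucp1 closely and those that did not. On log2 CPM, Pearson's r with Ucp1 was 0.974 for Otop1, 0.969 for Cidea, 0.964 for Cox8b, 0.950 for Cox7a1, 0.946 for Elovl3 and 0.863 for Fabp3, with Spearman's rho of 0.964, 0.945, 0.948, 0.905, 0.940 and 0.818 in the same order. Each of these had a permutation p of 1e-05 for both measures, the smallest that 100000 resamples can give, and an adjusted p of 1e-05 over the 9 relations. Ppargc1a was looser, with r = 0.641 (permutation p = 6e-05, adjusted p = 7.71e-05) and rho = 0.589 (permutation p = 0.00024, adjusted p = 0.000309). Dio2 had r = 0.385 (permutation p = 0.0203, adjusted p = 0.0228) and rho = 0.434 (permutation p = 0.00924, adjusted p = 0.0104). Prdm16 did not pass, with r = 0.242 (permutation p = 0.154, adjusted p = 0.154) and rho = 0.293 (permutation p = 0.0823, adjusted p = 0.0823).

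The strain difference of Ucp1 weighs on these pooled values, so they were computed within each strain. For Dio2, r with Ucp1 was 0.768 in 129X1 (permutation p = 0.00018) and 0.624 in B6 (permutation p = 0.0046), both above the pooled 0.385. For Prdm16, r was 0.506 in 129X1 (permutation p = 0.0323, adjusted p = 0.0364) and 0.433 in B6 (permutation p = 0.0748, adjusted p = 0.0748), although rho in B6 was 0.715 (permutation p = 0.00121, adjusted p = 0.00156). For Ppargc1a, r was 0.493 in 129X1 (permutation p = 0.0365) and 0.746 in B6 (permutation p = 0.00045). The 6 genes that followed Ucp1 closely in the pooled values, the close followers, had r between 0.732 (Fabp3) and 0.924 (Otop1) in 129X1. In B6 their r was between 0.891 (Elovl3) and 0.977 (Cidea). For Fabp3 the pooled split did not hold within 129X1, where Dio2 had the higher r (0.768). Thus Dio2 went with Ucp1 inside each strain, but not at a set ratio. Dio2 minus Ucp1 in log2 CPM ran from -6.03 to -4.37 in 129X1 and from -4.33 to -0.71 in B6.

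Leaving out the 2 libraries farthest from the Ucp1 median, B6 Veh-P replicate 3 (69.5 CPM) and B6 Val-P replicate 3 (347 CPM), r was 0.800 to 0.972 for the 6 close followers and 0.536 for Ppargc1a. It was 0.305 for Dio2, which then missed the threshold (permutation p = 0.0789, adjusted p = 0.0789; rho 0.363, adjusted p = 0.0406), and 0.358 for Prdm16, which then passed it (permutation p = 0.0375, adjusted p = 0.0422; rho 0.325, adjusted p = 0.0625). On deviations from the 12 group means, which hold no strain or treatment difference, r was 0.950 for Otop1, 0.967 for Cidea, 0.637 for Dio2 and 0.470 for Prdm16, and all 9 passed. Among the other pairs, Cox7a1 with Cox8b had r = 0.990 and Cidea with Cox8b r = 0.987, given as a description. The 36 points share the sampling of their tissue: the adipocyte score had r = 0.893 with Ucp1 and 0.947 with Otop1, and the macrophage score r = -0.643 with Ucp1. With the adipocyte score r was 0.712 for Ppargc1a, 0.534 for Prdm16 and 0.413 for Dio2. Prdm16 also had r = -0.533 with the thymocyte score, and Ppargc1a 0.422 with the skeletal muscle score.

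**Figure D3:**
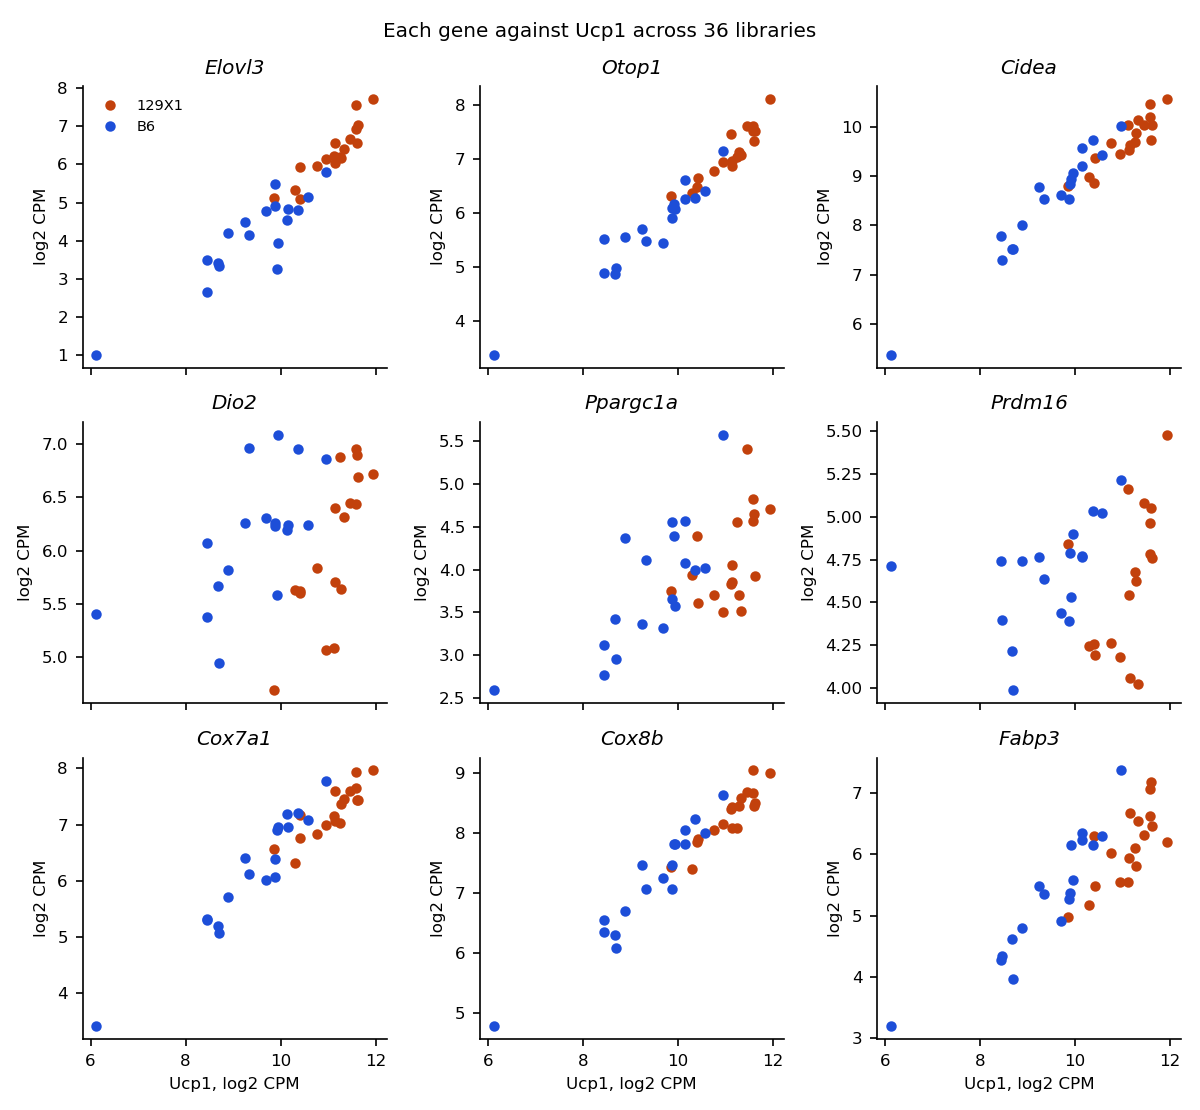
Log2 CPM of the other 9 genes against log2 CPM of Ucp1, a point for each of 36 libraries, 129X1 in orange and B6 in blue. Ucp1 is the horizontal axis of every panel, so most 129X1 points lie to the right of the B6 points in all 9. Otop1, Cidea and Cox8b form a single narrow band (r = 0.974, 0.969 and 0.964), whereas for Dio2 (r = 0.385) the strains cover similar heights. The library at the far left is B6 Veh-P replicate 3.

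Over all 18627 other genes tested, ranked by r with Ucp1, Otop1 came at rank 1, Cidea at 7 and Cox8b at 14. Cox7a1 was at 51, Elovl3 at 65, Fabp3 at 519, Ppargc1a at 1862, Dio2 at 3518 and Prdm16 at 4915. On deviations from the 12 group means the order changed, with Cidea at 1, Cox8b at 2, Cox7a1 at 3 and Otop1 at 14. Fabp3 was then at 48, Elovl3 at 160, Ppargc1a at 1007, Dio2 at 1235 and Prdm16 at 2027. The 6 genes outside the set with the highest pooled r were Gm15241 (0.973), Hadhb (0.972), Letmd1 (0.971), Plin5 (0.970), Slc25a20 (0.970) and Suclg1 (0.968). Hadhb is a subunit of the mitochondrial fatty acid oxidation complex, Slc25a20 carries acylcarnitine into mitochondria, Plin5 coats lipid droplets and Suclg1 is a citric acid cycle enzyme. Gm15241 averaged 12.0 ± 5.81 CPM in 129X1 and 2.71 ± 1.95 CPM in B6 (SD, n = 18 each).

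B6 Veh-P replicate 3 stood apart from the rest. It was the lowest of the 36 libraries for 8 of the 10 genes, with 1.93 CPM of Elovl3 against 6.23 CPM in the next lowest library, and 41.5 CPM of Cidea against 156 CPM in the next lowest. For Dio2 and Prdm16 it was not the lowest. Its adipocyte score was also the lowest of the 36 and its macrophage score the highest. At the other end, 129X1 Veh-P replicate 1 was the highest library for 6 of the 10 genes, with 3920 CPM of Ucp1 and 210 CPM of Elovl3, and B6 Sac/val-T replicate 1 was the highest for Ppargc1a and Fabp3. Leaving out each of the 36 libraries in turn, 6 or 7 of the 10 genes and 5767 to 7546 of all genes passed in the strain comparison. The log2 difference of Ucp1 stayed between 1.41 and 1.60.

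Genes around the thermogenic ones were read in lists by role. Their counts stand beside the 33.8% of all genes that passed for strain in either direction and the 16.3% that were higher in 129X1. Of 12 genes of nerve input and second messengers, 7 were higher in 129X1 and none was lower (edgeR, adjusted p below 0.05; median log2 difference 0.51). They included Thrb, a thyroid hormone receptor (0.52), Prkar2b, a protein kinase A subunit (0.76), Adcy3, an adenylyl cyclase (0.55), and the adrenergic receptor Adrb1 (0.95), while the other 3 were Npr3, Klb and Adrb3 (0.61, 0.61 and 0.49). Of 14 transcriptional regulators, 6 were higher and 2 lower (median 0.48). Esrra and Esrrg, orphan nuclear receptors of mitochondrial genes, differed by 0.64 and 0.91, Irf4 by 0.98, and Tle3, a corepressor that opposes Prdm16 in fat cells, by -0.43. The other lower one was Zfp516 (-0.29).

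All 8 genes of lipolysis and the lipid droplet were higher in 129X1 (median 0.67), where 16.3% of all genes were higher. Among the 8 were the lipases Mgll (0.89), Pnpla2 (0.77) and Lipe (0.67) and the coat protein Plin5 (1.13). Of 16 tested genes of fatty acid uptake and oxidation, 15 were higher and none lower (median 0.82), with Acot11, a thioesterase, at 1.53, Acot2 at 0.82, Slc25a20 at 1.03 and Hadha at 0.96. Of 13 genes of cycles outside Ucp1 and other brown fat genes, 5 were higher (median 0.77): Letmd1 (0.96), Nrg4 (0.84), Slc36a2 (0.76), Kcnk3 (0.84) and Pank1 (0.93), while the 13 ranged from -0.25 to 1.36. Plin1, Lipe, Cidec, Pnpla2, Fabp4, Lpl, Cd36, Pparg and Cebpa stand in the adipocyte marker list too, so these lists are not separate from it.

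Relatives of the 10 genes did not move as a block. Of 14 paralogues, 7 were higher in 129X1 and 5 lower (median 0.16), against 3044 higher and 3252 lower of all 18628 genes. Fabp5, a fatty acid carrier of skin, macrophages and fat, averaged 78.4 ± 10.9 CPM in 129X1 and 187 ± 51.6 CPM in B6 (SD, n = 18 each), a log2 difference of -1.25 (SE 0.13, edgeR adjusted p = 1.00e-08), opposite in sign to Fabp3. Ucp3 differed by 1.20, Elovl6 by 1.12 and Cideb by 1.31. The others that were lower were Pprc1 (-0.39), Elovl1 (-0.40), Cox7a2l (-0.17) and Dio3 (-1.15).

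Within single treatments the strain difference was tested on 6 against 6 libraries and within a regimen on 9 against 9. Under Val, 7 of the 10 genes were higher in 129X1, where 20.9% of all genes passed in either direction and 11.3% were higher. Under Veh it was 3 of 10, against 13.5% of all genes in either direction and 7.02% higher. Under Sac/val edgeR called 0 of 10, while 6.26% of all genes passed by edgeR in either direction and 3.08% were higher. DESeq2 called 1 of 10 there, Elovl3, and its own share of all genes is not given here. There 3 of the 10 had an unadjusted edgeR p below 0.05, and so had 3695 of all 18628 genes. In the prophylactic regimen 6 of 10 were higher (21.7% of all genes in either direction, 11% higher) and in the therapeutic regimen 3 of 10 (13.3% in either direction, 6.5% higher). The subsets with 6 or 7 of the 10 were those with the highest share of all genes.

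Elovl3 had the largest strain difference under each treatment. Its lowest, median and highest levels under Sac/val were 60.5, 78.1 and 131.04 CPM in 129X1, against 10.5, 25.9 and 55.9 CPM in B6. Under Val they were 34.0, 63.4 and 189 CPM in 129X1, against 6.23, 10.6 and 27.6 CPM in B6. Under Veh they were 40.3, 83.7 and 210 CPM in 129X1, against 1.93, 23.0 and 35.5 CPM in B6. The log2 difference was 1.44 under Sac/val (edgeR adjusted p = 0.102), 2.48 under Val (edgeR adjusted p = 0.0021) and 2.25 under Veh (edgeR adjusted p = 0.00542). For Ucp1 it was 1.22 under Sac/val (edgeR adjusted p = 0.142), 1.77 under Val (edgeR adjusted p = 0.0111) and 1.52 under Veh (edgeR adjusted p = 0.035), the last of which missed the threshold in 6 of 36 fits with 1 library left out (adjusted p up to 0.113). These left out 129X1 Veh-T replicate 1 or 3, 129X1 Veh-P replicate 1, or B6 Veh-T replicate 1, 2 or 3.

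Some of these counts turned on single libraries. Without B6 Veh-P replicate 3, 2 genes passed under Sac/val and 5 in the therapeutic regimen, and without B6 Sac/val-T replicate 1 the counts were 1 and 5. Under Val 3 genes passed in place of 7 without B6 Val-P replicate 1, 129X1 Val-P replicate 2, B6 Val-T replicate 2 or 129X1 Val-T replicate 3. In the prophylactic regimen 3 passed in place of 6 without 129X1 Veh-P replicate 1 or 129X1 Val-P replicate 2. The counts of all genes that passed moved as well over the 36 fits with 1 library left out. They ran from 2422 to 4346 under Val and from 919 to 1561 under Sac/val. In the prophylactic regimen they ran from 3106 to 5182, and in the therapeutic regimen from 1806 to 3601. All fits share 1 estimate of the spread, so a library can change a count in groups it is not part of.

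Strain differences were compared between treatments and regimens in 3 interaction comparisons, and drug differences between regimens in 2. In these 5 comparisons edgeR and DESeq2 called none of the 10 genes, and 0% of all genes passed in each. Between 156 and 960 of all 18628 genes had an unadjusted edgeR p below 0.05 in a comparison, and 1 of the 50 values did. That value was Ppargc1a in the interaction of strain with Sac/val, where the Sac/val minus Veh difference in 129X1 less that in B6 was -1.12 (95% interval -2.13 to -0.12, edgeR adjusted p = 0.952). Ppargc1a under Sac/val was 11.3, 12.5 and 24.9 CPM in 129X1 (lowest, median, highest of 6) and 10.2, 20.1 and 47.6 CPM in B6, and under Veh 14.1, 19.3 and 28.3 CPM in 129X1 and 5.92, 14.2 and 20.5 CPM in B6. The sets overlapped under both treatments.

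**Figure D4:**
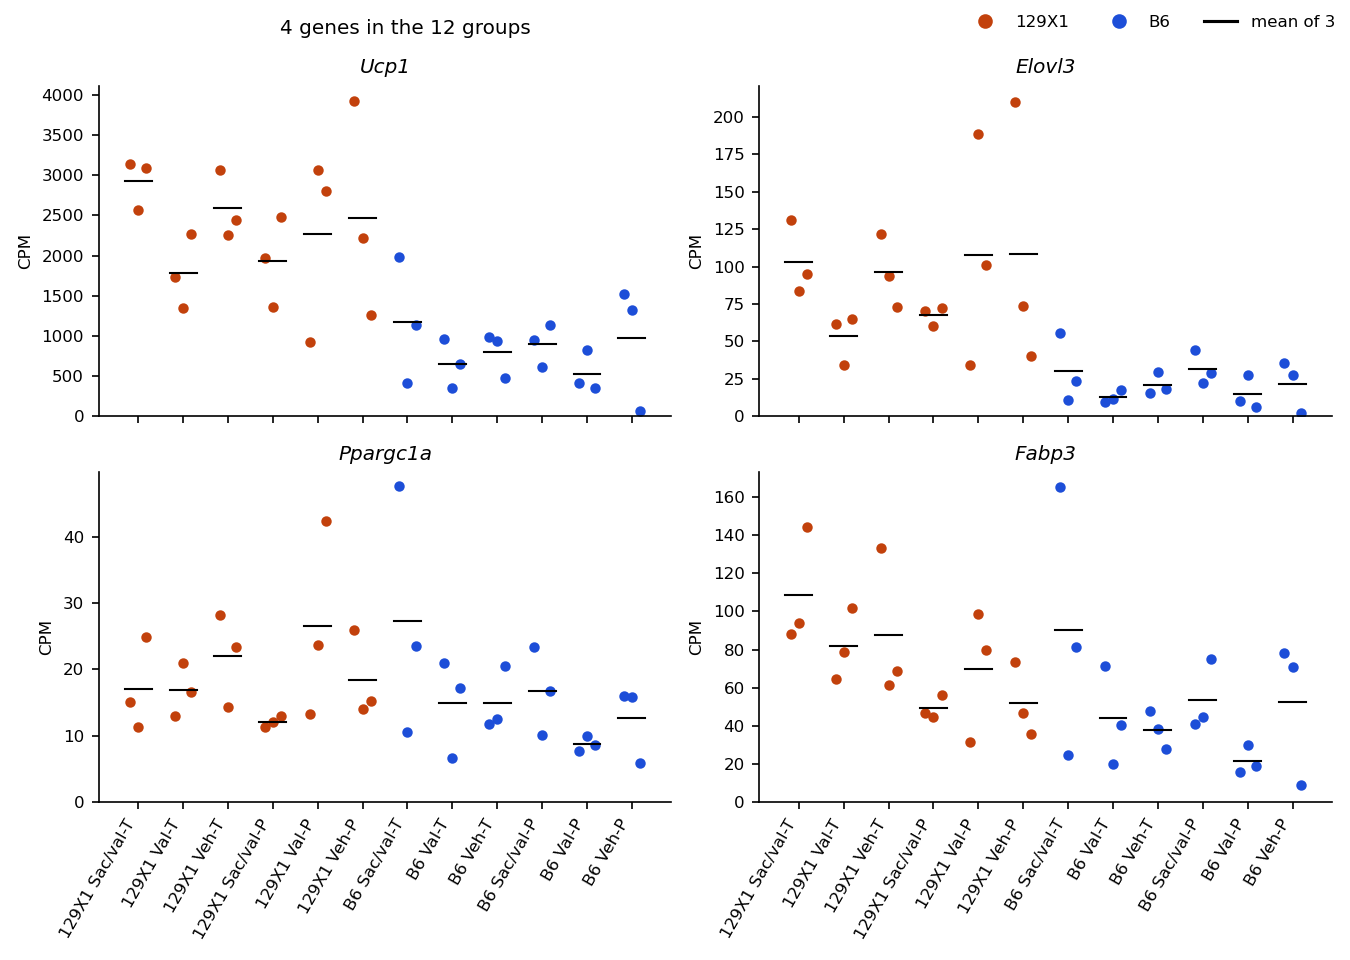
Levels (CPM) of 4 genes in the 12 groups, a point for each mouse and a line for the mean of 3, with 129X1 (orange) left of B6 (blue). Ucp1 in the group 129X1 Sac/val-T averages 2934 CPM and in B6 Veh-P 969 CPM, and for Ppargc1a the point at 47.6 CPM is B6 Sac/val-T replicate 1.

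The treatment comparisons ask whether Sac/val or Val changed the arteries relative to Veh and whether the 2 drugs differed, each as a mean over the 4 combinations of strain and regimen with 12 libraries a side. For Sac/val minus Veh, edgeR called 0 of the 10 genes and 0% of all genes, and DESeq2 called 0 of the 10. An unadjusted edgeR p below 0.05 was found for 0 of the 10 and for 293 of all 18628 genes. The log2 differences lay between -0.21 and 0.38 with a median of 0.09, against 0.01 for all genes. Ucp1 ran from 410 to 3142 CPM under Sac/val (median 1666) and from 69.5 to 3920 CPM under Veh (median 1419), and its log2 difference of 0.07 had an interval of -0.61 to 0.75. The interval reached 0.99 for Fabp3 and was narrowest for Prdm16, at -0.46 to 0.08.

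For Val minus Veh, edgeR called 0 of the 10 genes and 0% of all genes, and DESeq2 called 0 of the 10. An unadjusted edgeR p below 0.05 was found for 1 of the 10 and for 453 of all 18628 genes. All 10 log2 differences were below 0, from -0.53 to -0.10 with a median of -0.34 (0.03 for all genes), but with the adipocyte score as a covariate 8 of the 10 were above 0, from -0.20 to 0.35 with a median of 0.15, and none passed. Prdm16 had the smallest p: its lowest, median and highest levels were 15.8, 22.3 and 33.7 CPM under Val and 18.9, 27.0 and 44.5 CPM under Veh, a log2 difference of -0.31 (interval -0.58 to -0.04, edgeR adjusted p = 0.986). Ucp1 had a median of 947 CPM under Val and 1419 CPM under Veh, a log2 difference of -0.46 with an interval of -1.14 to 0.23. Since the genes move together from library to library, 10 values of the same sign are not 10 separate observations.

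For Sac/val minus Val, edgeR called 0 of the 10 genes and 0% of all genes, and DESeq2 called 0 of the 10. An unadjusted edgeR p below 0.05 was found for 0 of the 10 and for 491 of all 18628 genes. The log2 differences lay between 0.12 and 0.65 with a median of 0.44 (-0.03 for all genes), but with the adipocyte score 8 of the 10 were below 0, from -0.18 to 0.066 with a median of -0.064, and none passed. Fabp3, with the smallest p, had levels of 24.5, 65.7 and 165 CPM under Sac/val (lowest, median, highest of 12) and 15.6, 52.6 and 102 CPM under Val, a log2 difference of 0.56 (interval -0.05 to 1.17, edgeR adjusted p = 0.908). Elovl3 had the largest difference, 0.65 (interval -0.09 to 1.39). These comparisons share their libraries, Veh in the first 2 and each drug in 2 of the 3. The doses were 60 mg/kg/day of Sac/val and 27 mg/kg/day of Val.

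Within single combinations of strain and regimen, 12 drug comparisons of 3 against 3 libraries gave 120 values for the 10 genes. None passed by edgeR or DESeq2, and 0% of all genes passed in each of the 12. Of the 120 values 7 had an unadjusted edgeR p below 0.05. Over all 18628 genes, between 101 (Sac/val minus Veh in 129X1 therapeutic) and 2400 (Sac/val minus Val in B6 prophylactic) had one in a comparison. The values lay between -1.28 and 1.31. The medians over the 10 genes went both ways: Sac/val minus Veh was 0.13 in 129X1 therapeutic, -0.47 in 129X1 prophylactic, 0.65 in B6 therapeutic and 0.00 in B6 prophylactic. Val minus Veh was -0.43 in 129X1 therapeutic, 0.04 in 129X1 prophylactic, -0.16 in B6 therapeutic and -0.77 in B6 prophylactic. The median distance from the value to its 95% bound in these comparisons was 1.21 to 1.23.

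**Figure D5:**
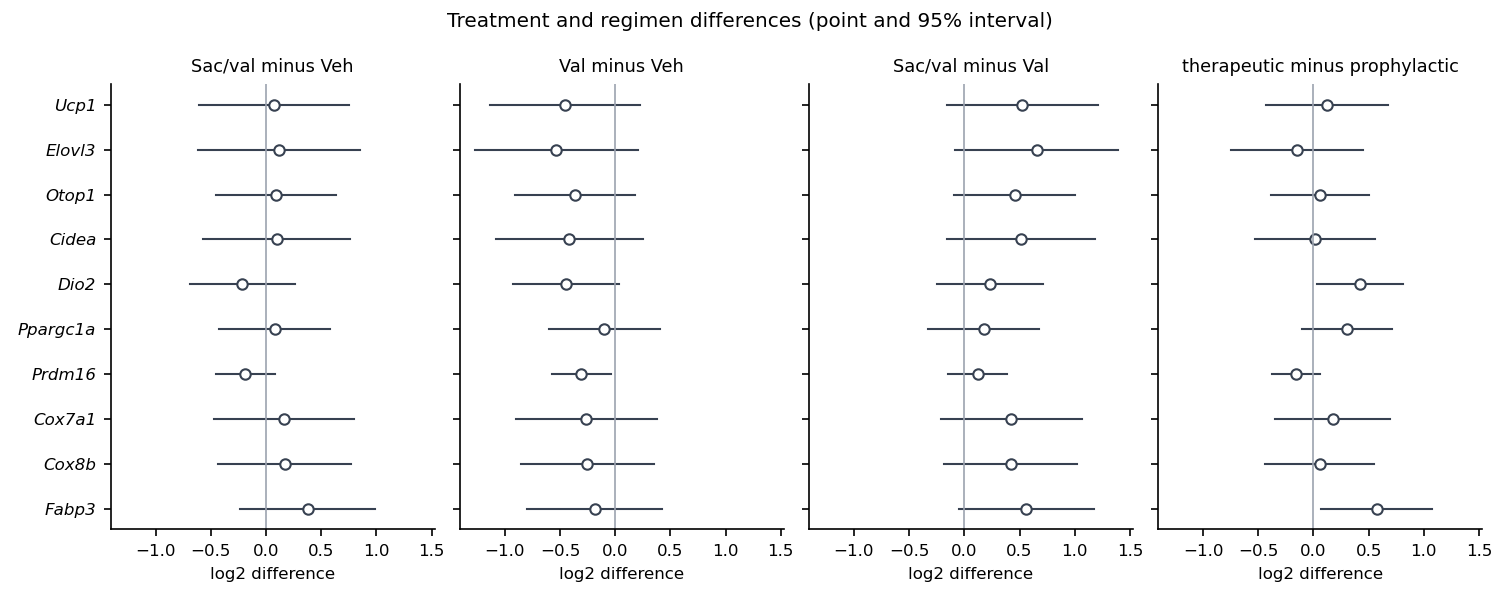
Log2 difference of each gene with its 95% interval for Sac/val minus Veh, Val minus Veh, Sac/val minus Val (12 libraries a side) and therapeutic minus prophylactic (18 a side); open points did not pass. All 10 Val minus Veh values lie below 0 and all 10 Sac/val minus Val values above it, directions that 8 of the 10 genes in each do not keep with the adipocyte score as a covariate; Dio2 (0.42) and Fabp3 (0.57) lie highest in the regimen panel.

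The regimen comparison sets 18 therapeutic against 18 prophylactic libraries. EdgeR called 0 of the 10 genes and 0% of all genes, and DESeq2 called 0 of the 10. An unadjusted edgeR p below 0.05 was found for 2 of the 10 and for 599 of all 18628 genes. Log2 differences lay between -0.16 and 0.57 with a median of 0.09, against 0.01 for all genes. Fabp3 had a lowest, median and highest level of 20.2, 70.1 and 165 CPM in the therapeutic regimen, against 9.09, 45.8 and 98.6 CPM in the prophylactic one, a log2 difference of 0.57 (interval 0.07 to 1.07, edgeR adjusted p = 1.00). Dio2 had 48.0, 77.2 and 136 CPM in the therapeutic regimen, against 25.7, 62.5 and 123 CPM in the prophylactic one, a log2 difference of 0.42 (interval 0.03 to 0.81, edgeR adjusted p = 1.00). In 129X1 under Sac/val the 3 therapeutic libraries had 79.4, 103 and 119 CPM of Dio2, against 33.5, 49.3 and 49.7 CPM in the 3 prophylactic ones. In B6 under Sac/val they had 50.7, 72.9 and 116.1 CPM, against 75.3, 76.5 and 76.7 CPM. These 4 groups were singled out after their values were seen, and the regimen difference within them was not tested. Ucp1 had a median of 1542 CPM in the therapeutic and 1287 CPM in the prophylactic regimen, a log2 difference of 0.12 with an interval of -0.43 to 0.68.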

How the data were processed

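The deposited table holds raw counts of reads per gene symbol, 1 column per library, made by the authors from the ligated left carotid arteries of 36 mice. Per the labels' protocols, libraries were made from Trizol-extracted total RNA with a stranded mRNA kit. Per the submitters' processing notes, Trimmomatic 0.36, STAR 2.5.2b and featureCounts of Subread 1.5.0p3 were used with GRCm38. The annotation release and the strand setting are not given in the sources used here. GRCm38 is built on the C57BL/6J genome, and its effect on reads of 129X1 was not tested.

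All 36 columns matched a library by title. Genes were filtered with filterByExpr, which kept 18628, and scaled with TMM. All comparisons were contrasts of 12 group coefficients in edgeR 4.0.16 under R 4.3.3 (quasi-likelihood, 24 residual degrees of freedom), adjusted with Benjamini-Hochberg within each comparison. Intervals and standard errors follow from the quasi-likelihood F. Correlations used log2 CPM with a prior count of 2 and 100000 resamples, two-sided (numpy 2.4.6, with ranks from scipy 1.17.1). Exon lengths are the union of exons in GENCODE M21. The fit was tested on simulated data.

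The 10 genes and the lists were chosen with earlier results of these data known. Named besides the 10 are up to 4 passing genes per thermogenesis list with the smallest p in the strain comparison and the 6 other genes most like Ucp1. Further passing list genes (Npr3, Klb, Adrb3, Zfp516, Pank1, Pprc1, Elovl1, Cox7a2l and Dio3) and single markers were named after their values were seen. Gyk and Wdnm1-like were not matched, and Nppa, Nppb and Myl7 fell below the filter. A list score is the mean log2 CPM of its tested genes. Alternatives were size factors or the Wald test of DESeq2 1.42.0, all genes unfiltered, a fit to the compared libraries alone, list scores or the mouse number as covariates, and each library left out. A thymocyte score, leaving out libraries with 10 CPM of Rag1 or more, and correlations without the library lowest in Ucp1 were added after seeing the data.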

Additional observations from a re-analysis of the deposited data

How the results depend on the processing

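The number of the 10 genes that passed kept within 1.5 times with DESeq2 size factors, no filter, and the mouse number or thymocyte score as covariate in every comparison named. With the adipocyte score it was 4 for strain over all libraries, 0 under Veh, 0 under Val, 2 under Sac/val and 1 in the prophylactic regimen. With 3 scores (adipocyte, skeletal muscle, Schwann cell) it was 1 for strain, 0 under Veh, 0 under Val, 0 in the prophylactic and 1 in the therapeutic regimen, and with the skeletal muscle score 3 under Val. The DESeq2 Wald test gave 1 under Sac/val, and the fit of only the libraries compared gave 1 under Veh, 2 under Sac/val and 3 in the prophylactic regimen. When libraries with 10 CPM of Rag1 or more were dropped, 20 were left (6 of 129X1, 14 of B6). Both strains remained in 5 combinations of treatment and regimen. The log2 strain differences over these were 2.29 for Elovl3 and 1.57 for Ucp1, an alternative added after seeing the data with fewer samples. Leaving out single libraries gave 3 to 8 under Val, 0 to 2 under Sac/val, 3 to 6 in the prophylactic and 3 to 5 in the therapeutic regimen. Counts of all genes that passed in these fits were 2422 to 4346, 919 to 1561, 3106 to 5182 and 1806 to 3601, in the same order. For the other settings in single treatments and regimens, the share of all genes that passed is not given here.

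Some signs turned, including those of Cidea, Cox7a1 and Fabp3, which had passed for strain. With the adipocyte score the strain difference was -0.26 for Ppargc1a, -0.0090 for Cox7a1 and -0.14 for Fabp3, Val minus Veh was 0.15 for Ucp1 and 0.076 for Elovl3, and Sac/val minus Val was -0.065 for Ucp1; in each of these 2 comparisons 8 of the 10 signs turned. With 3 scores the strain difference was -0.013 for Cidea, -0.48 for Ppargc1a, -0.080 for Cox7a1 and -0.23 for Fabp3, the regimen difference of Elovl3 was 0.018, Val minus Veh was 0.18 for Ucp1 and 0.031 for Elovl3, and Sac/val minus Val was -0.077 for Ucp1. With the thymocyte score the strain difference was 0.031 for Dio2 and 0.053 for Prdm16, and without the Rag1 libraries 0.12 for Prdm16. Leaving out single libraries, the strain difference of Prdm16 was -0.089 to 0.0084, the regimen difference of Elovl3 -0.29 to 0.0055, and Sac/val minus Veh -0.083 to 0.19 for Ucp1 and -0.086 to 0.35 for Elovl3. The cause was not tested. Of all 100 differences of the 10 genes in 10 comparisons, 36 changed sign with the adipocyte score, 40 with 3 scores, 3 with the skeletal muscle score, 4 with the thymocyte score and 0 with DESeq2 size factors.

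The counts of all genes that passed for strain were 6296 here, 2511 with the adipocyte score, 3005 with 3 scores and 3821 without the Rag1 libraries. For regimen, Sac/val minus Veh, Val minus Veh and Sac/val minus Val edgeR called 0 genes and DESeq2 called 21, 10, 2 and 17, while 599, 293, 453 and 491 had an unadjusted edgeR p below 0.05. No paired analysis was possible because the labels give no replicate numbers that pair mice across groups. The lowest count of any of the 10 genes in a library was 47 reads (Elovl3).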
